A study of Gallus gallus with 3 samples.

Results

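Melanoblast and pigment genes were followed through 3 arrays of neural crest cells (NCC) of the chicken embryo. The 7 genes are MLANA, PMEL, MITF, DCT, TYR, TYRP1 and KIT. They were chosen as a set by name, with earlier results of these data known. The lists of other melanoblast and pigment genes used below were chosen with the same knowledge. Every probe set that carries one of the 7 symbols in the platform annotation was taken. This gave 11 probe sets among 38439 and 7 genes among 13009 named genes. MITF had 5 probe sets and each of the other genes had 1.

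All 3 arrays hold RNA of cells that were sorted for the HNK1 surface epitope, which NCC carry while they migrate and condense. The label of each array gives White Leghorn as the strain, whereas the methods name Rhode Island Red beside it as a source of eggs. In order of title they are the HH9 array, the trunk HH16-titled array and the trunk HH19-titled array, where HH is the Hamburger-Hamilton stage of the embryo. The age fields of the trunk arrays name the opposite stages: HH19 for the HH16-titled array and HH16 for the HH19-titled array. The description of both trunk arrays names HH16. The trunk arrays are therefore named by title, neither is a control for the other, and their stages are not settled. Every ratio of the HH16-titled array over the HH19-titled array is one of HH19 over HH16 if the age fields hold. Read by title, MAB21L1, STMN2, ISL1 and ELAVL4 run opposite to the direction that the study gives for them between these stages. Read by the age fields they do not. The study gives each of them as higher at HH19. On the HH16-titled and HH19-titled arrays MAB21L1 had 725 and 48.4, and STMN2 had 4911 and 1320. ISL1 had 5215 and 530, and ELAVL4 had 2517 and 988. Other genes to which the study gives a direction were not set beside them. According to the methods, the HH9 cells were cranial NCC from heads pooled over many embryos and freed of neural tube and notochord. The source name of that array nevertheless says trunk. Trunk cells came, by the methods, from explants freed of ectoderm and notochord. The results of the study state that the trunk tissue was freed of the neural tube too. Axial level, stage and dissection differ together between the HH9 array and the trunk arrays, so what each contributes cannot be told apart.

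Melanoblasts are the NCC that become pigment cells. In the trunk of the bird embryo they leave the neural tube later than the NCC of the ganglia and migrate under the ectoderm, whereas the earlier cells take the ventral path. MITF is the transcription factor that starts the pigment program. KIT is the receptor of melanoblasts for the growth factor KITLG. PMEL forms the fibrils on which pigment is laid down in the melanosome, and MLANA is a membrane protein needed for the maturation of that organelle. TYR carries out the first step of melanin synthesis, and DCT and TYRP1 are related enzymes of later steps. The retinal pigment epithelium also uses most of these genes, and KIT is also used by blood precursors, germ cells and some neurons. In chickens the Dominant white alleles lie in PMEL. The sources used here do not state whether these embryos carried one.

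The values are MAS5 signals, the summary of probe brightness of the Affymetrix software on a linear scale. The files hold 1 array per stage, so no difference has a replicate check and no p-value was computed. Signals below 99.8, the pooled 40th percentile, were set to this floor ahead of taking ratios. Where 1 of the signals lay under the floor the fold is a lower bound, written with "at least", and where both did no fold is given. Signals at or above the floor were found for 58.8% of probe sets on the HH9 array, 61.0% on the HH16-titled array and 60.2% on the HH19-titled array. The crest genes SOX10, TFAP2B, FOXD3, SNAI2, ETS1, NGFR and B3GAT1 were all above the floor on all 3 arrays. B3GAT1 encodes an enzyme that makes the HNK1 epitope. The summed signal of these genes was 33240 on the HH9 array, 30300 on the HH16-titled array and 32180 on the HH19-titled array. SOX10 was the brightest of them on each array and weighs most in these sums. Against the HH9 array, single genes differed more than the sums. TFAP2B, SNAI2, ETS1 and B3GAT1 were lower on both trunk arrays than on the HH9 array, and SOX10, FOXD3 and NGFR were higher. TFAP2B had 10210, 5208 and 5712 in the same order of arrays, ETS1 had 2065, 937 and 1347 and NGFR had 189, 453 and 289. The only spread that the files offer is that between probe sets of 1 gene, which share the RNA and so cover probe error alone. Among 4481 genes with several measured probe sets, the log2 ratios of the HH16-titled array over the HH19-titled array spanned a median range of 0.31 within a gene, and 0.82 at the 90th percentile.

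MLANA and PMEL had the highest log2 ratios of the members between the trunk arrays. Both were bright on the HH16-titled array and under the floor on the HH19-titled array, whereas MITF and KIT differed by less than 2-fold. DCT was flat, TYRP1 barely passed the floor on 1 array and TYR lay under it everywhere. In such bulk RNA, fewer cells of a type and less RNA per cell cannot be told apart. Of the 7 members, 2 were at least 2-fold higher on the HH16-titled array and 0 were lower. MITF, KIT and DCT differed by less, TYRP1 had a bound under 2-fold and TYR had no fold. Among all 10681 named genes with a fold, 1.93% passed 2-fold as higher on the HH16-titled array and 1.54% were lower. A member that is above the floor on only 1 of the 2 trunk arrays has its fold through that array alone. MLANA, PMEL and TYRP1 were of this kind, so the count describes these genes and carries no test.

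**Figure D1:**
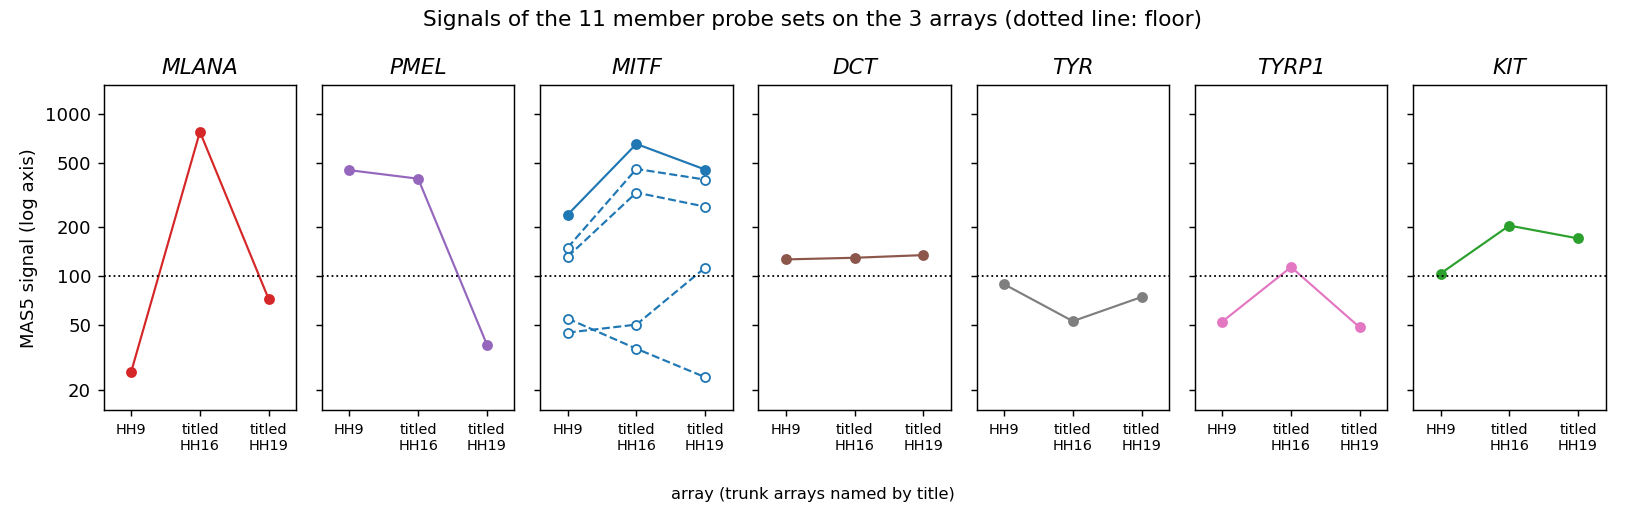
MAS5 signals (log axis) of the 11 probe sets of the 7 genes on the HH9 array, the HH16-titled array and the HH19-titled array. Filled points with solid lines are the brightest probe set of a gene, open points with dashed lines the other 4 probe sets of MITF, and the dotted line is the floor of 99.8; MLANA peaks at 773 on the HH16-titled array, PMEL falls under the floor on the HH19-titled array alone, and 3 of the 5 MITF probe sets run in parallel.

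MLANA, the melanosome protein, gave MAS5 values of 25.9 on the HH9 array, 773 on the HH16-titled array and 72.6 on the HH19-titled array. It was above the floor on the HH16-titled array alone. It was at least 7.74-fold higher there than on the HH19-titled array (log2 ratio 2.95), and at least 7.74-fold higher than on the HH9 array, since both folds are taken against the same floor. A floor at 235, the 60th percentile, gave a log2 bound of 1.72 in both comparisons. With no floor the log2 ratio was 3.41 over the HH19-titled array and 4.90 over the HH9 array. It was past 2-fold with each of these floors.

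PMEL, the fibril protein of the melanosome, ran differently. It gave 449 on the HH9 array, 398 on the HH16-titled array and 38.1 on the HH19-titled array. The HH16-titled array and the HH9 array were alike, and the HH19-titled array was low. PMEL was at least 3.99-fold higher on the HH16-titled array than on the HH19-titled array. It was at least 4.50-fold lower on the HH19-titled array than on the HH9 array. Between the HH16-titled array and the HH9 array the log2 ratio was -0.18, a 1.13-fold difference. Neither of the large folds of PMEL stayed past 2-fold with the floor at the 60th percentile, where the log2 bounds were 0.76 for the HH16-titled array over the HH19-titled array and -0.93 for the HH19-titled array over the HH9 array.

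The signal of PMEL on the HH9 array is set here beside markers of the optic vesicle and retinal pigment epithelium, since heads were dissected for that array. Of 8 such genes with a probe set, 5 were above the floor on the HH9 array, 4 on the HH16-titled array and 3 on the HH19-titled array. Their summed signal was 2534 on the HH9 array, 1037 on the HH16-titled array and 2474 on the HH19-titled array, where PAX6, also a neural tube gene, gave most of the sum with 1965. OTX2, a homeobox factor of head and eye, had signals of 1243, 91.1 and 43.0 in the same order of arrays. RPE65, the retinoid isomerase of the mature retinal pigment epithelium, had 309, 148 and 115, and the retinal binding protein gene RLBP1 had 563, 309 and 294. The eye field genes SIX6 and LHX2 lay under the floor on all 3 arrays, and SIX3 reached 117 on the HH9 array. The part of eye tissue in the PMEL signal was not tested.

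MITF, the regulator of the pigment program, was above the floor on all 3 arrays and higher on both trunk arrays than on the HH9 array. Its brightest probe set gave 239 on the HH9 array, 651 on the HH16-titled array and 453 on the HH19-titled array. The second had 150, 457 and 393 in the same order, and the third had 132, 327 and 268. Both of these are of the type whose probes can bind several transcripts of a gene. All 3 gave the same order of arrays, with the HH16-titled array highest and the HH9 array lowest. Over the HH9 array the HH16-titled array was 2.72-fold higher by the brightest probe set, 3.04-fold by the second and 2.48-fold by the third. The HH19-titled array was 1.89-fold, 2.62-fold and 2.04-fold higher than the HH9 array by the same probe sets. So 3 of 3 passed 2-fold in the first comparison and 2 of 3 in the second. Of all probe sets with a fold, bounds included, 6.77% passed the same threshold for the HH16-titled array over the HH9 array. For the HH19-titled array over the HH9 array the share was 4.77%.

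Between the trunk arrays MITF differed by less than 2-fold. By its brightest probe set it ranked 977 from the highest ratio among 10681 named genes with a fold. The HH16-titled array was 1.44-fold, 1.16-fold and 1.22-fold higher than the HH19-titled array by the 3 probe sets. Their log2 ratios lay between 0.22 and 0.52 and so spanned 0.30, close to the median range within a gene of 0.31. The lowest of them is smaller than that range, which covers probe error and not the spread between arrays. The other 2 probe sets of MITF, which share 1 cluster number in their names, were dim. One had 45.1 on the HH9 array, 50.5 on the HH16-titled array and 113 on the HH19-titled array, where it just passed the floor. Its partner, which carries the letter A in its name in place of S, lay under the floor on all 3 arrays at 55.0, 35.9 and 24.0. They do not share the order of the 3 bright probe sets, and the sources used here do not state which transcripts of MITF they bind.

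KIT, the receptor of melanoblasts, followed the same order as MITF at low signal. It had 104 on the HH9 array, just above the floor, 205 on the HH16-titled array and 171 on the HH19-titled array. It was 1.97-fold higher on the HH16-titled array than on the HH9 array (log2 ratio 0.98), just under the 2-fold threshold, and 1.64-fold higher on the HH19-titled array than on the HH9 array. Between the trunk arrays the log2 ratio was 0.26. KIT has 1 probe set, so it has no range of its own. The median range of 0.31 within other genes covers probe error alone and does not give the error of this ratio. KITLG, which encodes the ligand of KIT, had signals of 165, 396 and 367 in the same order of arrays. It was 2.39-fold higher on the HH16-titled array and 2.22-fold higher on the HH19-titled array than on the HH9 array, and it differed by 1.08-fold between the trunk arrays.

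Markers of other cells that use KIT also differed between the arrays. Of 9 blood and blood precursor genes with a probe set, 3 were above the floor on the HH9 array, 8 on the HH16-titled array and 6 on the HH19-titled array, with summed signals of 1026, 1952 and 1527. The blood factor RUNX1 had signals of 102, 240 and 241, and the myeloid factor SPI1 had 19.5, 488 and 240. LMO2, a factor of blood precursors and the brightest of these genes on the HH9 array, ran the other way with 425, 300 and 281. The pan-leukocyte gene PTPRC lay under the floor on all 3 arrays. Of the germ cell genes, DAZL had 169 on the HH9 array, 48.4 on the HH16-titled array and 484 on the HH19-titled array, and DDX4 had 147, 108 and 215, an order that KIT does not share. The 2 genes summed to 316, 157 and 699. The part of blood or germ cells in the KIT signal was not tested.

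The enzymes of melanin synthesis were dim on all 3 arrays. TYR, the enzyme of the first step, gave 89.4 on the HH9 array, 53.0 on the HH16-titled array and 74.6 on the HH19-titled array, all under the floor. DCT, the dopachrome tautomerase, had 127, 130 and 135, which spans 1.06-fold. The sign of such a difference against the HH9 array turned when the arrays were centred on their medians or quantile normalized. TYRP1 had 52.7, 114 and 48.5 and passed the floor on the HH16-titled array alone, where it was at least 1.15-fold higher than on either of the others. With no floor its log2 ratio was 1.24 over the HH19-titled array and 1.12 over the HH9 array. As for MLANA, the HH16-titled array was the highest and the other arrays lay under the floor, but the signal there was so near the floor that a 2-fold difference was not detectable with it.

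**Figure D2:**
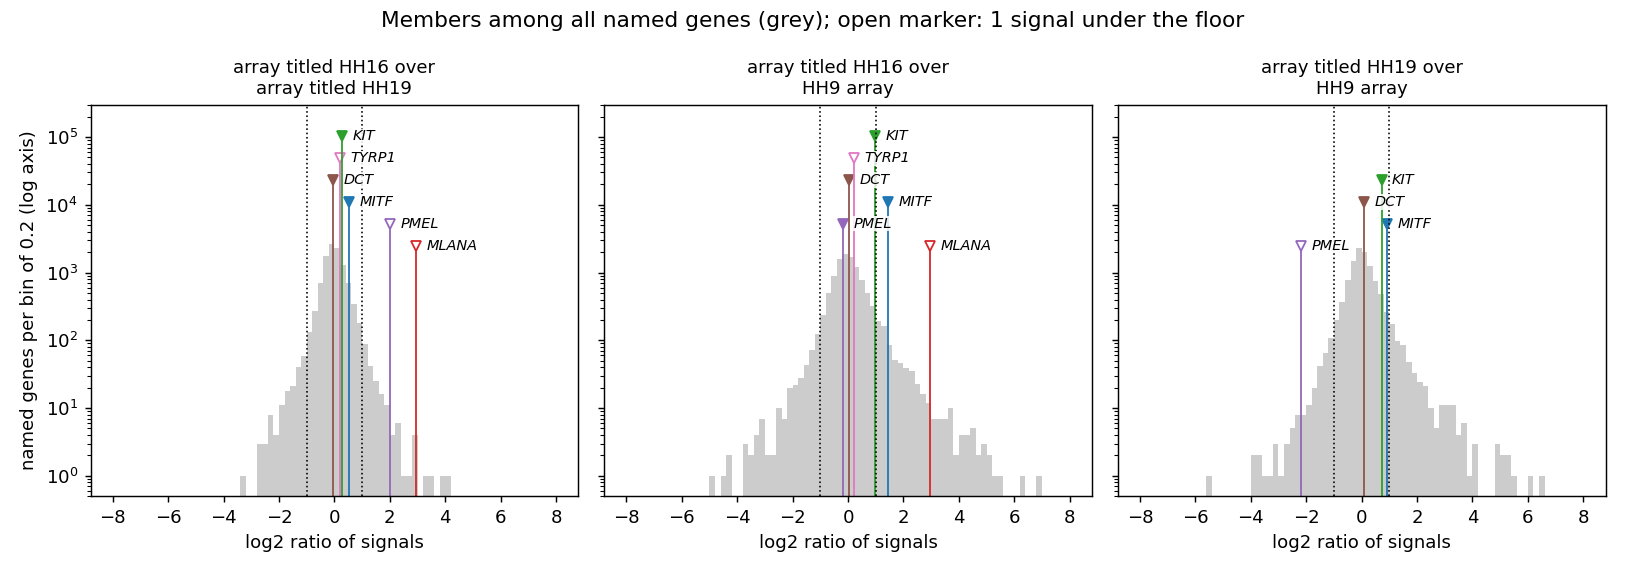
Log2 ratios of the members in 3 comparisons (labelled lines) over the histogram of all named genes with a fold (grey, log axis, bins of 0.2). Dotted lines mark 2-fold, and open markers are bounds with 1 signal under the floor; MLANA lies at 2.95 in both comparisons of the HH16-titled array, and PMEL lies at 1.99 over the HH19-titled array but at -0.18 over the HH9 array.

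Over the HH9 array the 2 members at least 2-fold higher on the HH16-titled array were MLANA and MITF, and 0 were lower. Among 10697 named genes 6.80% were higher and 3.20% were lower by this threshold. On the HH19-titled array, 0 members by their brightest probe set were at least 2-fold higher than on the HH9 array and 1, PMEL, was lower, against 5.34% and 2.58% of 10643 named genes. MLANA, TYRP1 and TYR had no fold in this comparison. The median log2 ratio of the members with a fold was 0.39 for the HH16-titled array over the HH19-titled array, 0.59 for the HH16-titled array over the HH9 array and 0.40 for the HH19-titled array over the HH9 array. The medians of all named genes were -0.02, -0.01 and 0.00. Between the trunk arrays MLANA, PMEL and TYRP1 have their fold through the HH16-titled array alone, so these ratios could only be positive. The same holds for MLANA and TYRP1 on the HH16-titled array over the HH9 array. For the HH19-titled array over the HH9 array, PMEL has its fold through the HH9 array alone and could only be negative. The medians of the members therefore carry no test. The comparisons with the HH9 array depend on the scaling of the arrays. With every array centred on its own median, the median of all named genes was -0.16 for the HH16-titled array over the HH9 array and -0.10 for the HH19-titled array over it. The share of calls that were higher on the HH16-titled array was then 53.9%, against 68.0% as deposited, and for the HH19-titled array it was 56.0% against 67.4%. The counts of members were the same under this scaling.

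Other genes of melanoblasts were taken from a list of factors, receptors and ligands that specify these cells and guide them. Of 19 genes, 16 had a probe set and all 16 had a fold. Only EDNRB2 was at least 2-fold higher on the HH16-titled array than on the HH19-titled array, and only SOX9 was lower. The median log2 ratio of the list was 0.13 in this comparison. Among all named genes 1.93% were higher and 1.54% lower, with a median of -0.02. Over the HH9 array, 6 of the 16 were higher and 2 lower on the HH16-titled array with a median of 0.95. For all named genes the shares were 6.80% and 3.20%, with a median of -0.01. On the HH19-titled array 4 were higher and 1 lower than on the HH9 array, with a median of 0.49. There the shares of all named genes were 5.34% and 2.58%, with a median of 0.00.

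EDNRB2 encodes the endothelin receptor that avian melanoblasts carry on the path under the ectoderm. Both of its probe sets peaked on the HH16-titled array. The one with the highest mean gave 160 on the HH9 array, 1604 on the HH16-titled array and 143 on the HH19-titled array, and the other had 120, 2645 and 90.1. The HH16-titled array was 11.2-fold higher than the HH19-titled array by the first and at least 26.5-fold by the second. Over the HH9 array it was 10.0-fold and 22.1-fold higher. EDNRB, the related receptor of the wider crest, had 3048, 7200 and 4325 in the same order of arrays and was 1.66-fold higher on the HH16-titled array than on the HH19-titled array. Its second probe set gave 1.79-fold.

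Of the transcription factors in this list, SOX10, PAX3 and FOXD3 act on MITF. SOX10, which activates MITF, gave 12310 on the HH9 array, 15750 on the HH16-titled array and 17340 on the HH19-titled array. PAX3, its partner in this role, had 933, 1814 and 1691. FOXD3, which holds back MITF in early NCC, had 4273, 6650 and 6018. Each of these 3 differed by no more than 1.11-fold between the trunk arrays. TFAP2A, a factor of crest induction and of melanoblasts, had 2036, 2623 and 1781 and was 1.47-fold higher on the HH16-titled array than on the HH19-titled array. LEF1, the effector of WNT signals, had 1408, 2943 and 3690 and was 2.09-fold higher on the HH16-titled array and 2.62-fold higher on the HH19-titled array than on the HH9 array. SNAI2, a factor of crest emigration and, in mammals, of melanoblasts, had 3776, 997 and 1206 and was 3.79-fold lower on the HH16-titled array and 3.13-fold lower on the HH19-titled array than on the HH9 array. ZEB2, a factor of crest migration, had 1986, 4926 and 5846, and SOX2, a progenitor factor, had 184, 583 and 515. Both were more than 2-fold higher on either trunk array than on the HH9 array. SOX9 had 404, 97.8 and 278, and was at least 2.78-fold lower on the HH16-titled array than on the HH19-titled array. Its signal on the HH16-titled array lay just under the floor.

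MET, the receptor for hepatocyte growth factor, which acts on melanoblasts in mammals, gave 172 on the HH9 array, 342 on the HH16-titled array and 171 on the HH19-titled array. On the HH16-titled array it fell just short of 2-fold higher than on the HH19-titled array, and was not counted. The second probe set had 82.4, 155 and 46.6, and so also peaked on the HH16-titled array. ADAMTS20, a protease of melanoblast migration, had 199, 383 and 283 in the same order of arrays. The ligand gene EDN3 and the receptor genes MC1R and ERBB3 had no probe set with their name and were not analysed here.

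**Figure D3:**
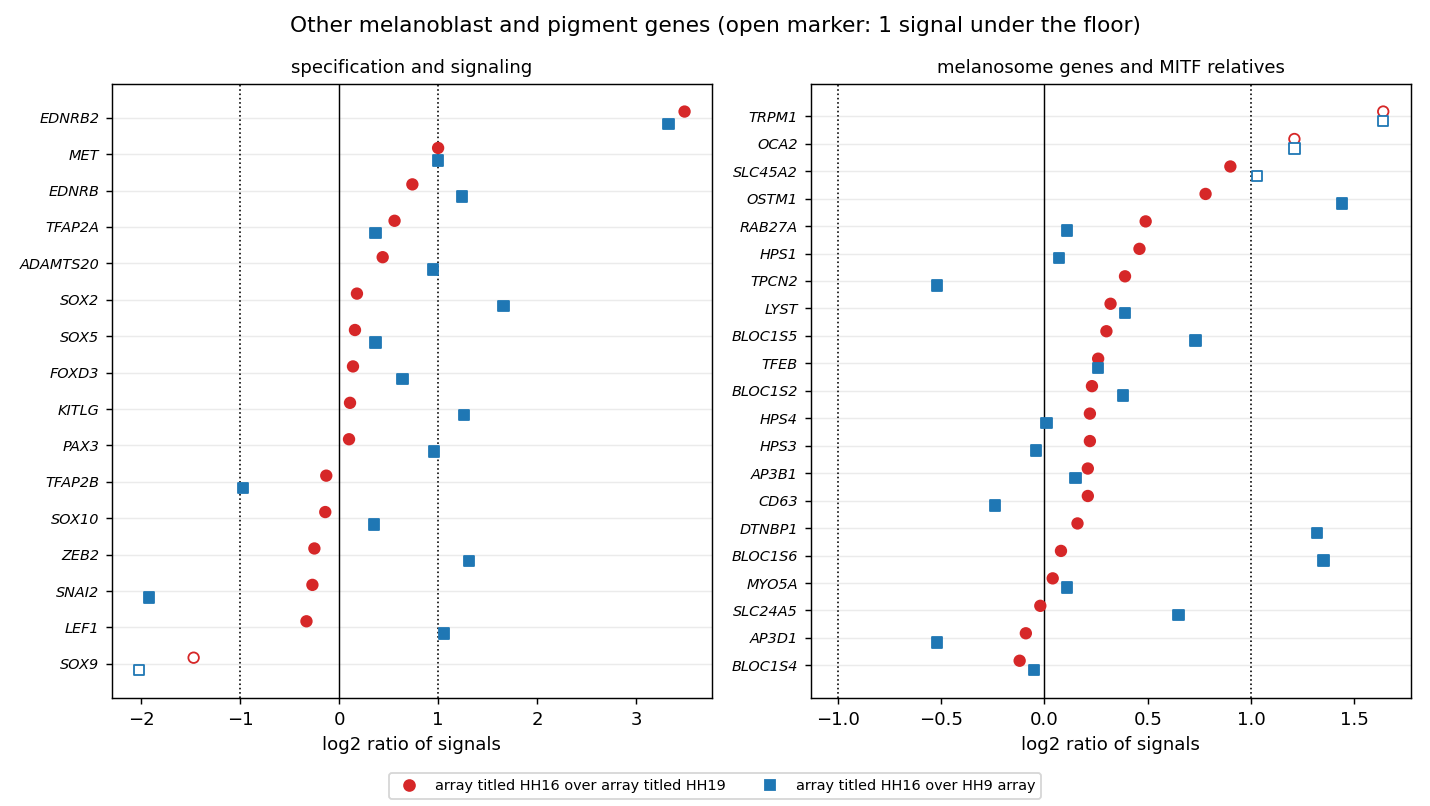
Log2 ratios of the HH16-titled array over the HH19-titled array (red circles) and over the HH9 array (blue squares) for the genes with a fold among other melanoblast genes (left, 16 genes) and melanosome genes and MITF relatives (right, 21 genes). Dotted lines mark 2-fold and open markers are bounds; EDNRB2, TRPM1 and OCA2 are past 2-fold on the higher side and SOX9 on the lower side in both comparisons, and no other gene shown is past 2-fold between the trunk arrays.

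Genes of the melanosome and of its transport, with the relatives of MITF, made up a second list of 33, of which 28 had a probe set and 21 had a fold between the trunk arrays. OCA2 and TRPM1 were at least 2-fold higher on the HH16-titled array than on the HH19-titled array, and 0 were lower. The median log2 ratio was 0.23. Over the HH9 array the median was 0.26 for the HH16-titled array, with 6 of 21 genes higher and 0 lower, and 0.07 for the HH19-titled array, with 2 of 19 higher and 0 lower. Of 37 genes of the 2 lists with a fold between the trunk arrays, 3 were higher and 1 lower on the HH16-titled array. Among all named genes 1.93% were higher and 1.54% lower in this comparison. Of the listed genes past 2-fold, only EDNRB2 had both signals above the floor by its brightest probe set. OCA2 and TRPM1 have their fold through the HH16-titled array alone, and SOX9 through the HH19-titled array alone. The floor thus fixed their direction, and the count carries no test. Over the HH9 array, 12 of 37 were higher and 2 lower on the HH16-titled array, against 6.80% and 3.20% of all named genes. On the HH19-titled array 6 of 35 were higher and 1 lower than on the HH9 array, against 5.34% and 2.58%.

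OCA2, a channel of the melanosome membrane, was above the floor on the HH16-titled array by all 3 of its probe sets and under it on both other arrays. The probe sets had 231, 188 and 225 on the HH16-titled array, against 75.7, 68.4 and 24.1 on the HH19-titled array. On the HH9 array they had 91.7, 38.9 and 80.8. The folds over the HH19-titled array were at least 2.31-fold, 1.89-fold and 2.25-fold. TRPM1, a channel gene that MITF activates in mammals, showed the same with 3 probe sets. They had 311, 146 and 108 on the HH16-titled array, against 64.6, 4.11 and 5.53 on the HH19-titled array. On the HH9 array they had 23.0, 13.3 and 2.97. The brightest gave at least 3.11-fold over both other arrays, and the others lay so near the floor that their bounds were 1.46-fold and 1.08-fold. SLC45A2, a transporter of the melanosome, had 63.9 on the HH9 array, 203 on the HH16-titled array and 109 on the HH19-titled array. It was 1.86-fold higher on the HH16-titled array than on the HH19-titled array. A floor at the 60th percentile left the bounds of OCA2 and TRPM1 short of 2-fold, and of both lists only EDNRB2 was then past it.

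SLC24A5, an exchanger gene needed for dark pigment, did not follow them. It gave 551 on the HH9 array, 866 on the HH16-titled array and 878 on the HH19-titled array, a 1.01-fold difference between the trunk arrays, and its second probe set gave 1.04-fold. GPR143, a receptor of the melanosome, and GPNMB, a relative of PMEL, lay under the floor on all 3 arrays, GPNMB by 3 of 3 probe sets. So did RAB32, RAB38 and MLPH, which serve the traffic and transport of melanosomes, and TFEC, a relative of MITF. The other genes of the list with a fold differed by less than 2-fold between the trunk arrays. MYO5A, the motor of melanosome transport, had 532, 575 and 559, HPS4 had 485, 487 and 419 and the tetraspanin gene CD63 had 2275, 1921 and 1662 in the same order of arrays. TFEB, the relative of MITF that drives lysosome genes, had 408, 488 and 407. OSTM1, a partner of a lysosomal chloride channel, had 193, 525 and 307 and was 1.71-fold higher on the HH16-titled array than on the HH19-titled array. TPCN2, a channel of lysosomes and melanosomes, had 634, 442 and 337, highest on the HH9 array. BLOC1S5 had 1007, 1670 and 1353 and was 1.66-fold higher on the HH16-titled array than on the HH9 array. In 2 more genes of the list, DTNBP1 and BLOC1S6, which encode subunits of a complex for organelle biogenesis, both trunk arrays were more than 2-fold higher than the HH9 array. DTNBP1 had 854, 2129 and 1909, and BLOC1S6 had 134, 343 and 324.

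**Figure D4:**
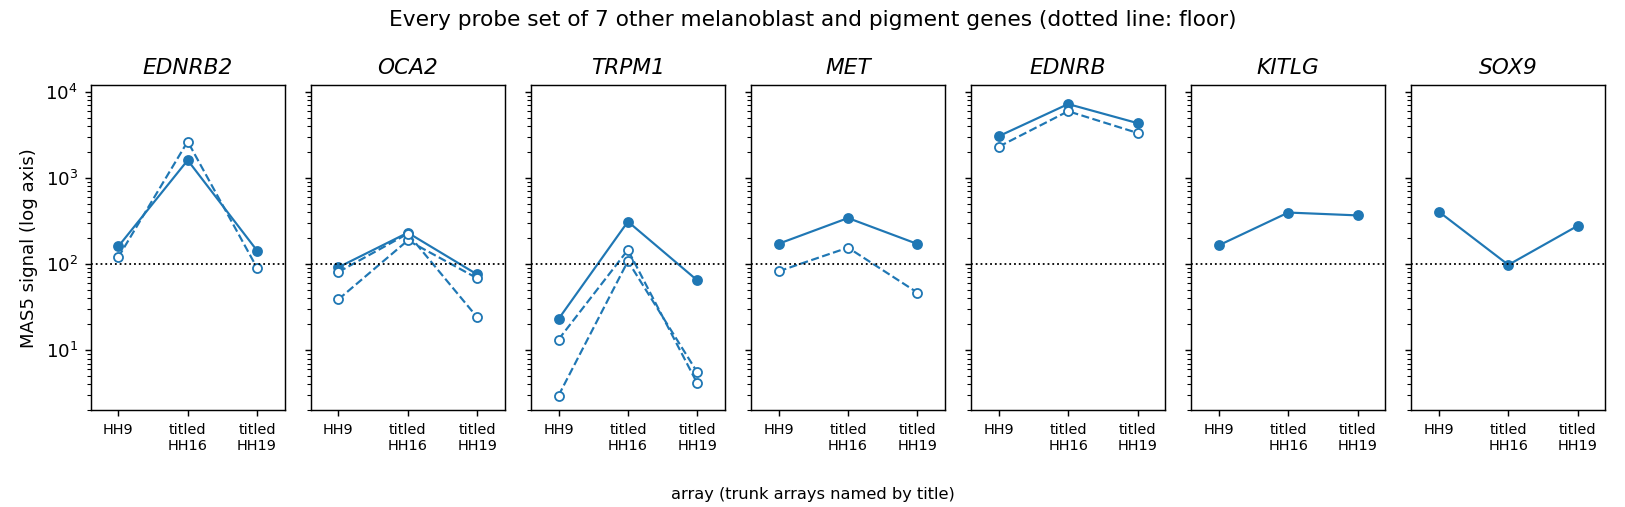
MAS5 signals (log axis) of every probe set of 7 other genes of melanoblasts and pigment on the HH9 array, the HH16-titled array and the HH19-titled array; filled points are the probe set with the highest mean, open points the others, and the dotted line is the floor. All 3 probe sets of OCA2 and of TRPM1 are above the floor on the HH16-titled array alone, and both probe sets of EDNRB2 peak there, at 1604 and 2645.

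Genes of sensory neurons and 1 glial gene were also higher on the HH16-titled array. Of 8 sensory neuron genes with a probe set, 3 were above the floor on the HH9 array, 7 on the HH16-titled array and 7 on the HH19-titled array, with summed signals of 800.0, 16280 and 3629. Between the trunk arrays 5 passed 2-fold, higher on the HH16-titled array, and 0 were lower. Among all named genes 1.93% were higher and 1.54% lower. The neuronal factor ISL1 had 285, 5215 and 530, and NEUROD1, a factor of neuronal differentiation, had 5.16, 2508 and 150. CDH19, a cadherin of glial precursors, had signals of 165, 443 and 194, whereas the glial gene FABP7 had 9032, 8292 and 8267. With SOX10, the 3 glial precursor genes were above the floor on every array and summed to 21510, 24480 and 25800. The part of neurons or glia in the values of MLANA, PMEL or EDNRB2 was not tested.

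Among 8486 named genes that reached 235 on 1 or more arrays, those most like each member were found by the Euclidean distance of the log2 ratios of the HH16-titled array over the HH19-titled array and over the HH9 array, which rest on 3 arrays only. MLANA was nearest to MAB21L1 at a distance of 0.13, then to TBX2 at 0.39 and to EDNRB2 at 0.65. EDNRB2 enters through its probe set with the highest mean. Its other probe set lay further from MLANA, with log2 ratios of at least 4.73 and of 4.46, against 2.95 in both for MLANA. MAB21L1 gave 7.55 on the HH9 array, 725 on the HH16-titled array and 48.4 on the HH19-titled array, and TBX2, a T-box factor, had 7.03, 912 and 146. Both MLANA and MAB21L1 were below the floor except on the HH16-titled array, so their distance compares only the signals on the HH16-titled array. PMEL had no match as close. Its nearest were RNF208, a ubiquitin ligase gene, at 0.35, CLCN1, a chloride channel gene, at 0.38 and ATG9A, a gene of autophagy, at 0.39, with the PMEL signal on the HH19-titled array set to the floor. MITF was nearest to PLCD1 at 0.019, CRMP1 at 0.034 and TMEM229B at 0.047, and KIT to DIAPH2 at 0.019, IQGAP2 at 0.037 and PDXK at 0.037. DCT, being flat, and TYRP1, being held near 0 by the floor, each had 3 genes within 0.0055. These were HNRNPDL, SCFD2 and NDFIP2 for DCT and CERS5, MAU2 and TMEM136-1 for TYRP1.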

How the data were processed

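The deposited values are MAS5 intensity values on a linear scale, 1 per probe set and array, made by a company for the authors. The methods describe 3 biological replicates of RNA per stage and comparisons on their mean, while the deposited table has 1 column per stage. The sources used here do not say whether a column is 1 replicate or that mean, so the spread between replicates cannot be read from it, nor do they give the version and settings of MAS5. The signals, trimmed of 2% at either end, average 498 on each of the 3 arrays. The files list 38535 probe sets, and 96 of these are controls, which were dropped. Among the remaining 38439, 27168 carry 1 gene in the platform annotation, 177 carry several and 11094 carry none. The 7 member symbols matched those of RefSeq (GRCg7b, names only), and the files name no genome build, so no coordinates are given.

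A gene with several probe sets was represented by its brightest, by mean log2 signal, and 2-fold, the threshold of the methods, was used for counts. The number of arrays limits precision. The text names all members, listed genes past 2-fold between the trunk arrays and a few set by name. Others from the lists were named after their values were seen. The members and lists were chosen with earlier results of these data known. The ratio functions were tested on simulated data, with folds put only into probe sets far above the floor. Folds that are bounds against the floor were not tested in this way. Python 3.11.15, numpy 2.4.6, pandas 2.3.3 and matplotlib 3.10.9 were used.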

Additional observations from a re-analysis of the deposited data

How the results depend on the processing

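Median centring of the arrays, quantile normalization, floors at the 20th or 60th percentile or none, a 3-fold threshold, the median over probe sets of a gene and dropping probe sets designed against more than 1 transcript were tried. A change of over 1.5 times counts here as a move, since there is no replicate spread. Of 120 alternative values for the counts and medians, 102 stayed within it, 16 moved and 2 turned sign. Some could not change. The brightest probe set of each member is kept when probe sets for several transcripts are dropped. The median over probe sets could change MITF alone among the members. With the floor at the 20th percentile or none, TYRP1 also passed 2-fold on the HH16-titled array over each other array. That made 3 members in place of 2, which did not count as a move.

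With the floor at the 60th percentile, 1 member was higher on the HH16-titled array than on the HH19-titled array, in place of 2, and 0 were lower on the HH19-titled array than on the HH9 array, in place of 1. The members' median log2 ratio was then 1.44 for the HH16-titled array over the HH9 array and -0.01 for the HH19-titled array over it, with fewer members given a fold. Of the other melanoblast and pigment genes together, 1 in place of 3 was higher and 0 in place of 1 lower on the HH16-titled array than on the HH19-titled array, and over the HH9 array 7 in place of 12 were higher and 1 in place of 2 lower. With no floor, 2 in place of 1 were lower on the HH16-titled array than on the HH19-titled array. With the floor at the 20th percentile or none (MLANA), or the median over probe sets (MITF), 1 member was higher on the HH19-titled array than on the HH9 array, in place of 0. With the 3-fold threshold, 1 member and 3 other genes were higher on the HH16-titled array than on the HH9 array, 0 other genes were higher on the HH19-titled array than on it, and 0 were lower on the HH16-titled array than on the HH19-titled array. With centring, 2 other genes in place of 1 were lower on the HH19-titled array than on the HH9 array, and their median was -0.03 in place of 0.07. The causes were not tested beyond what each setting changes by construction. With 1 array per stage, signals near the floor limit what can be seen of TYR, TYRP1 and DCT. No paired analysis was possible because each group has 1 array.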
